A study of Mus musculus with 12 samples.

Results

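The unfolded protein response and the degradation of misfolded proteins of the endoplasmic reticulum (ER) were followed in mouse striatum through 40 genes taken by name, of which 39 were measured among the 18193 genes that have an array probe set of their own. Eif2s1, which encodes the translation initiation factor subunit that the Eif2ak3 kinase phosphorylates, has no probe set paired with it alone and was not analysed here. The 39 genes were read by the branch of the response they are usually assigned to. There were 17 in the branch of the sensor Atf6, its activating proteases and the ER chaperones, 13 in the branch of Ern1, Xbp1 and the degradation machinery, and 9 in the branch of Eif2ak3, Atf4 and Ddit3. The rule that lists the names uses no array value. Each gene was represented by its brightest probe set, the one with the highest mean over all arrays.

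Proteins that fail to fold in the ER are sensed by 3 membrane proteins. Atf6 moves to the Golgi, where the site-1 and site-2 proteases encoded by Mbtps1 and Mbtps2 release its cytosolic part as a transcription factor for chaperone genes. Ern1 is a kinase and endoribonuclease that removes a short intron from Xbp1 mRNA, and the spliced product drives genes for ER expansion and for the export and destruction of misfolded proteins. Eif2ak3 phosphorylates the product of Eif2s1, which lowers general translation but favours translation of Atf4, whose targets include amino acid synthesis genes and the pro-apoptotic factor Ddit3. Expression arrays measure total mRNA. They report neither the splicing of Xbp1, nor the cleavage of Atf6, nor any phosphorylation.

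RNA came from the striatum of 12 mice on the C57BL/6 strain, with 1 Affymetrix mouse expression array per mouse. The knock-in mice, called Q92 here, had the genotype HdhQ92/Q92: both copies of the mouse Huntington's disease gene carry 92 CAG repeats that come from the first exon of the human gene. The controls were wild type, with no allele other than the strain's own named in the labels. There were 4 groups of 3 mice: wild type at 3 months (100 to 103 days, 1 female and 2 males), Q92 at 3 months (100 to 103 days, 2 females and 1 male), wild type at 18 months (596 to 604 days, 2 females and 1 male) and Q92 at 18 months (567 to 596 days, 2 females and 1 male). The allele sits at the gene's own locus, with no cell-type-specific promoter, and the labels name neither litter nor batch.

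All values are log2 signals, so a difference of 1.00 is a 2-fold change, and a negative difference is a lower signal in the group named first. Groups were compared with limma in 1 model of all 12 arrays, with p-values adjusted by the Benjamini-Hochberg method over 45037 probe sets. A gene is said to rise or fall only where the adjusted p was under 0.05. For the members the standard error (SE) of a difference between 2 groups ran from 0.08 to 0.18 with a median of 0.11. Signals are relative to the other genes of the same array. The 3 values of a group are given in the order of the mouse numbers. At 18 months these are mice 9, 12 and 17 for wild type and 11, 25 and 66 for Q92. At 3 months they are a 103-day-old male, a 103-day-old female and a 100-day-old male for wild type, and 2 females of 103 days and a male of 100 days for Q92. In whole striatum, fewer cells of a type and less RNA per cell cannot be told apart.

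The arrays correlated with each other at mean coefficients of 0.987 to 0.992, and the 100-day-old wild-type male and mouse 66 of the 18-month Q92 group had the lowest means. On the mean level of 8 choroid plexus markers, relative to the 12-array mean, 1 of the young Q92 females (2.12) and wild-type mouse 12 (1.98) stood apart from the other 10 mice, which ran from -0.95 to 0.61. No member passed in a comparison between 2 groups without either mouse. The striatal projection neuron marker Ppp1r1b lay between 9.49 and 11.27 on all 12 arrays. The knocked-in gene Htt read 7.68, 7.68 and 7.92 in the 3 wild-type mice at 3 months and 8.08, 8.09 and 8.03 in the 3 Q92 mice. These groups did not overlap, but the difference of 0.30 (SE 0.10, adjusted p = 0.99971) did not pass, and at 18 months the groups overlapped with a difference of 0.10. The Htt probe set was designed on the mouse gene and does not test for the expanded exon 1. Rrs1, a ribosome biogenesis gene, read 7.84, 7.89 and 7.89 in young wild-type and 8.65, 8.68 and 8.59 in young Q92 mice, and 8.003, 7.77 and 7.99 in old wild-type and 8.501, 8.59 and 8.69 in old Q92 mice. It was higher in every Q92 mouse, by 0.77 (SE 0.09, adjusted p = 0.0161) at 3 months and by 0.67 (SE 0.09, adjusted p = 0.0191) at 18 months. The 3-month call ended without any 1 of the 6 mice at that age, and the 18-month call without mouse 9, 12, 25 or 66, at adjusted p-values of up to 0.167 and 0.0737. Both calls also ended with the 18S signal as a covariate and with only the arrays compared in the fit. The 3-month call ended with age in days as a block. At 18 months that block leaves Q92 mouse 11 alone against wild-type mice 12 and 17, so its calls are not read.

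None of the 39 members passed the adjusted threshold between Q92 and wild type at either age, and none passed between 3 and 18 months in either genotype. The master chaperone gene Hspa5, the sensors Atf6, Ern1 and Eif2ak3 and the transcription factors Xbp1, Atf4 and Ddit3 were among the genes that did not pass. All 12 arrays of every member lay within a 2-fold range, those of 31 members within a 1.5-fold range, and the median range was 0.45. The lowest p-value for a genotype difference belonged to the protease gene Mbtps1, which was lower in 18-month Q92 mice, and the lowest for age, averaged over the genotypes, belonged to the co-chaperone gene Dnajb9, which was higher at 18 months in both genotypes. Neither passed.

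**Figure D1:**
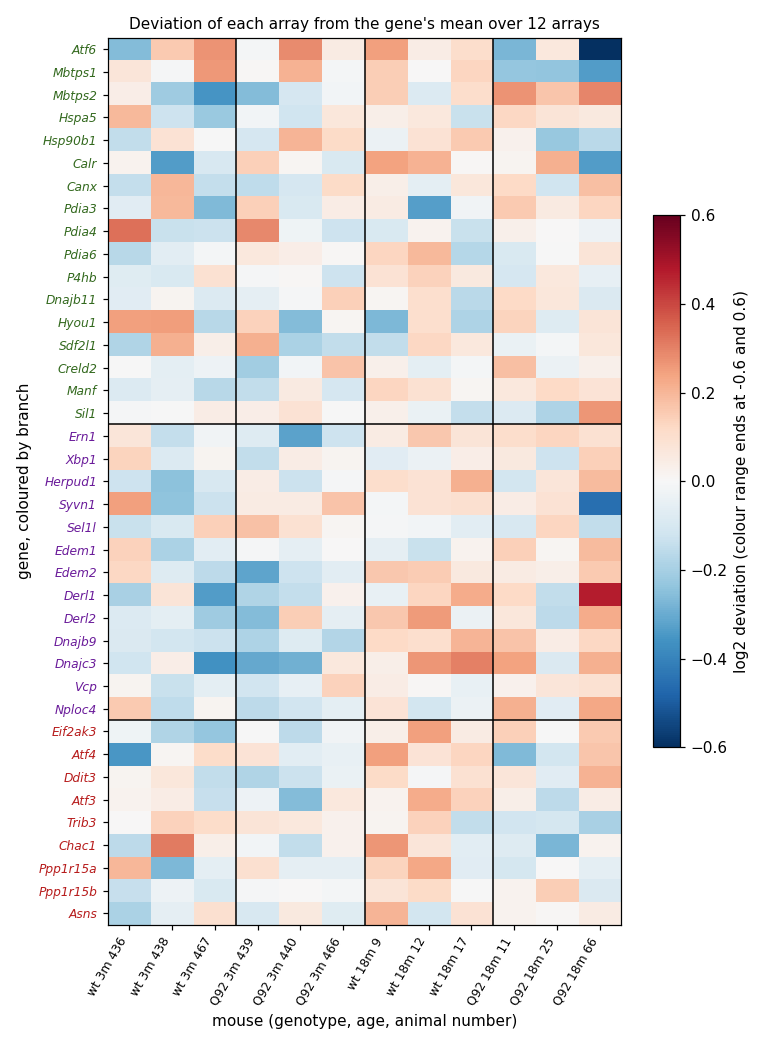
Signal of each of the 39 members in each of the 12 mice, as the log2 difference from that gene's mean over all arrays, ordered by branch (rows) and group (columns). The widest row is Atf6, which spans 0.96, and the narrowest is P4hb, which spans 0.26.

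Several chaperone and degradation genes carry a shared promoter element. The ER stress response element (ERSE), which reads CCAAT, 9 unspecified bases and CCACG, is known as the element through which cleaved Atf6 and spliced Xbp1 act together with the factor NF-Y. It was searched on both strands from 250 bases before to 50 bases after each gene's start in RefSeq's GRCm38.p6 promoters. Of the 40 genes 34 have a promoter entry, and it was present in 8 of these (23.5%) and in 37 of 27025 genes (0.137%). The 8 genes were Hspa5, Hsp90b1, Calr, Canx, Pdia6, Creld2, Dnajc3 and Syvn1, and Hsp90b1 held it at 2 places. A related element, ERSE-II, which reads ATTGG, 1 unspecified base and CCACG, was found in Herpud1 and Dnajb11, which is 5.88% of the members and 0.0444% of all genes. These windows are printed 5′ to 3′ on the strand of the gene, with the matched letters in capitals, because they hold the letters through which the known targets are switched on. Hspa5 and Hsp90b1 are chaperones, Calr a lectin chaperone, Dnajc3 an inhibitor of the Eif2ak3 kinase, and Syvn1 and Herpud1 parts of the degradation complex:

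Hspa5, chr2:34772005-34772063, plus strand: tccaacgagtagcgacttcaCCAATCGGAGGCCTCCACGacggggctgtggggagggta
Hsp90b1, chr10:86705618-86705676, minus strand: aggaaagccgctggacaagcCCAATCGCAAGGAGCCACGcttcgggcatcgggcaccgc
Hsp90b1, chr10:86705513-86705571, minus strand: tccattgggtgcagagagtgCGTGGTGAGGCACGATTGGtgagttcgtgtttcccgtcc
Calr, chr8:84847055-84847113, minus strand: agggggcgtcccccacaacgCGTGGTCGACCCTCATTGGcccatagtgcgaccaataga
Dnajc3, chr14:118937807-118937865, plus strand: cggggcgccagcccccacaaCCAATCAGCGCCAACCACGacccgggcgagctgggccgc
Syvn1, chr19:6046512-6046570, plus strand: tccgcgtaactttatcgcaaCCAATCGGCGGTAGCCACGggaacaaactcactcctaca
Herpud1, chr8:94386357-94386407, plus strand: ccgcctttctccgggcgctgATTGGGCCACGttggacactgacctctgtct

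In Hspa5 the match began 65 bases before the start, in Dnajc3 105 and in Syvn1 44. Calr and the second Hsp90b1 window match on the opposite strand, so the letters appear reversed, from CGTGG to ATTGG. The Xbp1 element TGACGTGG was present in Vcp among the members (2.94%, against 0.714% of all genes). The amino acid response element, bound by Atf4 with a partner, was searched as TGATGNAAT only. These exact letters were in the searched window of none of the 34 members and of 1.08% of all genes. Variant letters and sites outside the window were not searched, so this count cannot show that Atf4 targets among the members lack the element. A match is a description of letters and not evidence of binding, and Atf6, Derl1, Hyou1, Manf, Ppp1r15b and Sil1 were not in the promoter table.

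The 8 ERSE genes lay on both sides of 0 between genotypes. At 18 months 3 of the 8 were higher in Q92, with a median difference of -0.07 and a range from -0.19 to 0.10. At 3 months 6 of the 8 were higher in Q92, with a median of 0.06. With age, all 8 had a higher mean in wild type, by 0.02 to 0.35 with a median of 0.09. In Q92 4 of the 8 had a higher mean at 18 months, and the median was 0.02. None of these differences passed the test. The 25 members with a promoter but no ERSE had medians of -0.01, 0.01, 0.09 and 0.06 in the same 4 comparisons.

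Between Q92 and wild type at 18 months, when the knock-in mice were old, the members scattered around 0. Of the 39 genes 17 had a higher mean in Q92 and 22 a lower one, and the median difference was -0.01 (range -0.43 to 0.22). For all 18193 genes the share with a higher mean was 49.6%. No member passed the adjusted threshold in the limma test, against 0.077% of all genes. At an unadjusted p under 0.05 there were 2 members, Mbtps1 and Atf6, both lower in Q92, where 8.03% of all genes reached that level and 4.95% did so with a lower mean. Without wild-type mouse 9 there was 1. By complete separation of the arrays, 2 members lay above wild type (Mbtps2 and Pdia3) and 1 below (Mbtps1), against 6.5% and 7.51% of all genes.

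**Figure D2:**
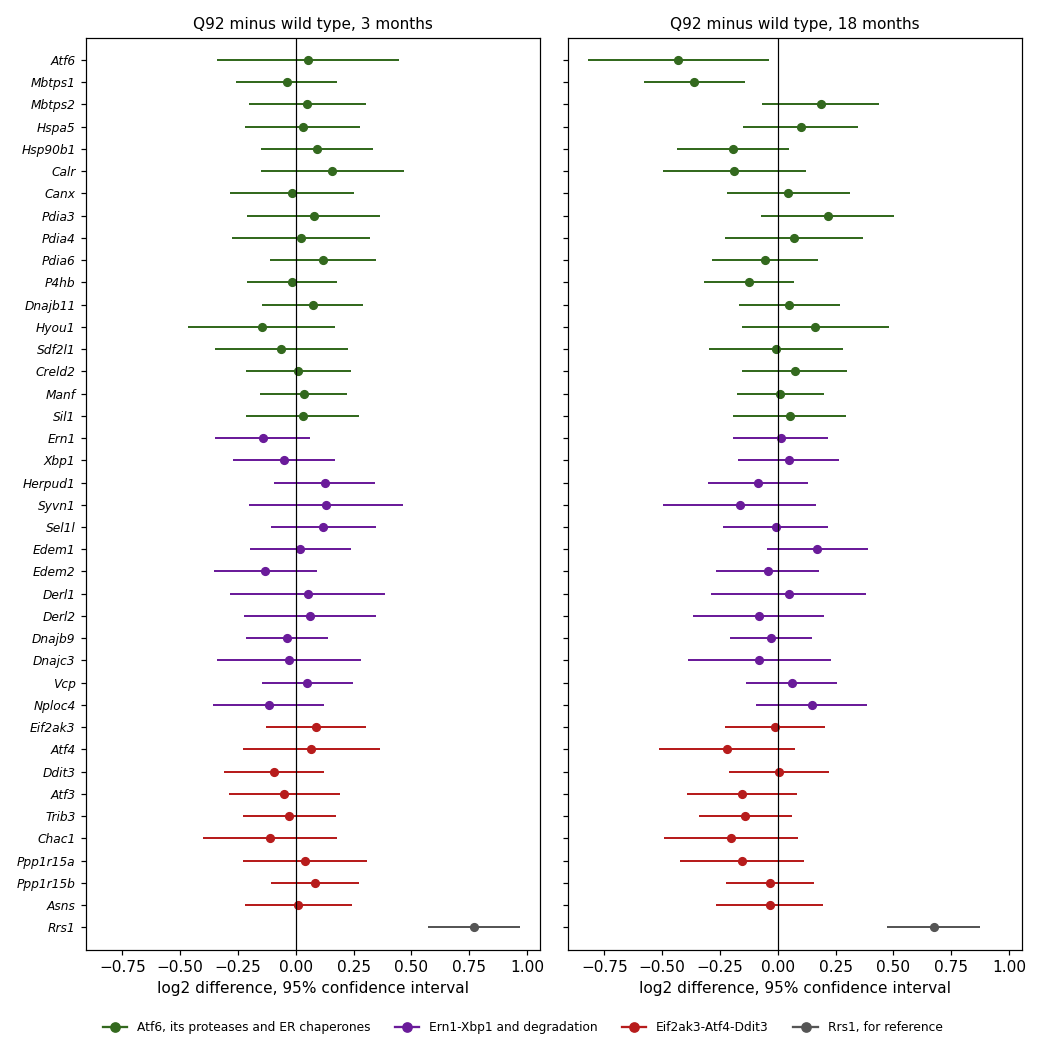
Difference between Q92 and wild type for each of the 39 members at 3 months and at 18 months, as points with 95% confidence intervals from the limma model, coloured by branch; n = 3 mice per group. For the members, every interval includes 0 at 3 months, and at 18 months only those of Atf6 and Mbtps1 do not. The bottom row shows Rrs1 for reference, and its interval lies above 0 at both ages.

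The branch of Atf6 held both genes at the lower end. Mbtps1, which encodes the site-1 protease, read 8.83, 8.69 and 8.81 in the 3 wild-type mice at 18 months and 8.45, 8.44 and 8.35 in the 3 Q92 mice. All 3 Q92 mice lay below all 3 wild-type mice, and they were also below the 6 mice of 3 months, which read 8.67 to 8.94. The difference at 18 months was -0.36 (SE 0.10, 95% interval -0.58 to -0.15, adjusted p = 0.287), which did not pass. The other 2 Mbtps1 probe sets, both dimmer, differed by -0.46 (adjusted p = 0.872) and -0.04 (adjusted p = 0.977). The first was close to the brightest in size but less precise, with an unadjusted limma p of 0.311 against 0.00301.

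The sensor gene Atf6 read 8.05, 7.85 and 7.91 in wild type at 18 months and 7.53, 7.87 and 7.13 in Q92. Mouse 66 gave the lowest value of all 12, and mouse 25 lay within the wild-type range, so that the groups overlapped. The difference was -0.43 (SE 0.18, adjusted p = 0.577), and it was -0.24 without mouse 66. At 3 months the values were 7.55, 7.97 and 8.07 in wild type and 7.80, 8.09 and 7.86 in Q92. There the groups overlapped, and the SD of the 3 wild-type mice, 0.28, was larger than the difference of 0.05. The other Atf6 probe sets, both dimmer, differed at 18 months by -0.41 (adjusted p = 0.503) and -0.08 (adjusted p = 0.942).

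The site-2 protease gene Mbtps2 read 7.73, 7.50 and 7.69 in wild type at 18 months and 7.85, 7.75 and 7.88 in Q92. It lay on the other side from Mbtps1, with every Q92 mouse above every wild-type mouse, and its difference of 0.19 (SE 0.11, adjusted p = 0.748) did not pass. Both proteases also cut the sterol regulatory factors, so their mRNA is not specific to the response. Hspa5, the ER's Hsp70 chaperone and the usual readout of the whole response, read 10.30, 10.33 and 10.13 in wild type at 18 months and 10.39, 10.34 and 10.32 in Q92. The 2 groups overlapped, and the Q92 mice were close together, with an SD of 0.03. Its difference was 0.10 (SE 0.11, adjusted p = 0.907), and the 95% interval of -0.14 to 0.34 stops short of a 1.5-fold change in either direction.

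The other chaperones of this branch lay on both sides of 0. Pdia3, a disulfide isomerase of glycoproteins, had the highest difference of all members, 0.22 (SE 0.13, adjusted p = 0.742), with the Q92 arrays above the wild-type arrays. Hyou1 and Sil1, which exchange nucleotides on the Hspa5 product, differed by 0.16 and 0.05. The lectin chaperones Calr and Canx differed by -0.19 and 0.05, and Hsp90b1, the ER's Hsp90, by -0.19. Over the 17 genes the median was 0.05, with 10 higher in Q92 and 7 lower, and without mouse 66, 17 or 11 it was -0.02, 0.01 and 0.01.

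The degradation branch had 6 of 13 genes higher in Q92 at 18 months, a median of -0.01 and no unadjusted p under 0.05. Ern1 read 6.40, 6.52 and 6.44 in wild type at 18 months and 6.46, 6.49 and 6.45 in Q92. The 3 Q92 values fell inside the wild-type range, with a difference of 0.01 (SE 0.09, adjusted p = 0.991). Its target Xbp1 read 9.81, 9.84 and 9.92 in wild type and 9.94, 9.76 and 10.02 in Q92, and again the groups overlapped, with a difference of 0.05 (SE 0.10, adjusted p = 0.959). The genes of the ubiquitin ligase complex that passes misfolded proteins out of the ER gave -0.17 for the ligase Syvn1, -0.01 for its partner Sel1l and -0.09 for the scaffold Herpud1. Vcp, the ATPase that pulls proteins out of the membrane, and its cofactor Nploc4 differed by 0.06 and 0.15.

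In the branch of Eif2ak3, Atf4 and Ddit3 8 of the 9 genes had a lower mean in 18-month Q92 mice. The median difference was -0.14, and it was -0.09 without wild-type mouse 12 or without Q92 mouse 25. By its brightest probe set no gene of the branch reached an unadjusted p under 0.05. The kinase gene Eif2ak3 itself read 7.19, 7.40 and 7.20 in wild type and 7.30, 7.15 and 7.31 in Q92, which overlapped, with a difference of -0.01 (SE 0.10, adjusted p = 0.993). Atf4 read 9.43, 9.26 and 9.31 in wild type and 8.92, 9.07 and 9.35 in Q92. Mice 11 and 25 were below all 3 wild-type mice and mouse 66 lay among them, and the difference was -0.22 (SE 0.13, adjusted p = 0.742).

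Ddit3, which encodes the factor CHOP, read 7.65, 7.53 and 7.63 in wild type at 18 months and 7.61, 7.47 and 7.75 in Q92. Its groups overlapped and their means differed by less than 0.01 (adjusted p = 0.997). A second, dimmer Ddit3 probe set differed by 0.49 at 18 months (adjusted p = 0.306) and by 0.35 over both ages (adjusted p = 0.783), so the 2 probe sets disagree. The mean of both gave 0.25 at 18 months (adjusted p = 0.44). The targets downstream all had values below 0 without passing. They were -0.20 for Chac1, which degrades glutathione, -0.15 for the transcription factor Atf3, -0.14 for the pseudokinase Trib3 and -0.04 for asparagine synthetase. Atf3 and Trib3 were dim, with means of 3.94, the lowest of the members, and 4.70. The lowest value on any array was 2.03. A dimmer Trib3 probe set gave -0.43 (adjusted p = 0.296). The phosphatase subunits that reverse the translation block gave -0.16 for the inducible Ppp1r15a and -0.03 for the constitutive Ppp1r15b.

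**Figure D3:**
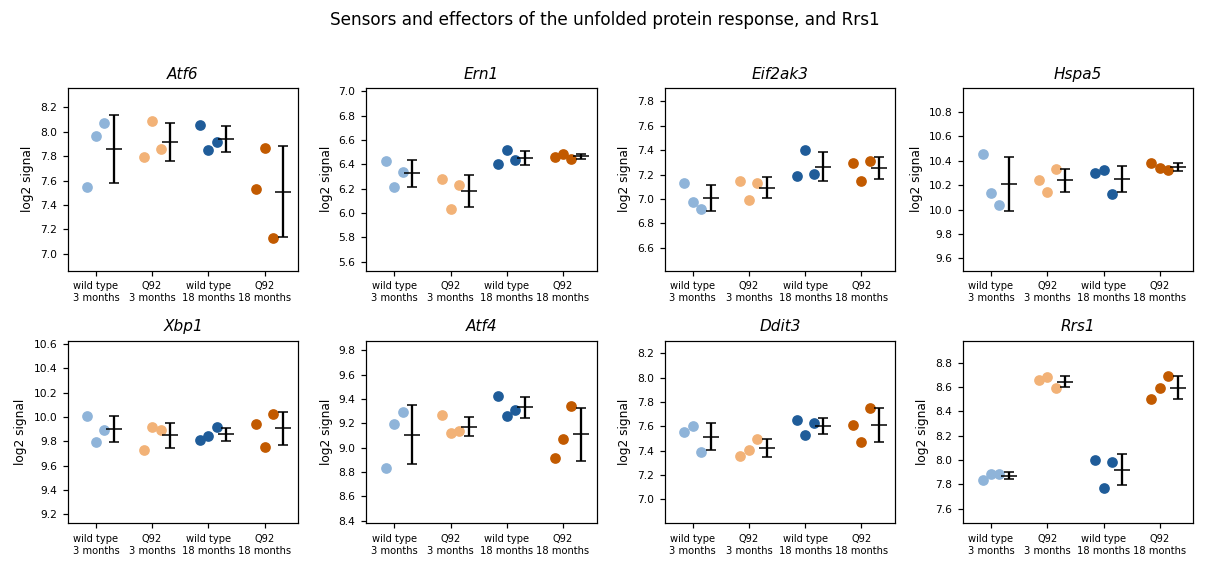
Log2 signal of the 3 sensors Atf6, Ern1 and Eif2ak3, of Xbp1, Atf4, Ddit3 and of the chaperone Hspa5 in each mouse (points), with the mean and SD of each group of 3 (bars); each panel has its own axis. A further panel shows Rrs1 for reference. In the Rrs1 panel the Q92 mice of 18 months lie above the wild-type mice of that age. In every other panel these groups overlap.

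The 95% intervals give the range of differences that these values allow for the brightest probe sets. At 18 months the intervals of 38 of the 39 members lay within a 1.5-fold change in either direction, and 12 lay within 1.2-fold. The exception was Atf6, whose interval reached a 1.76-fold lower signal. At 3 months all 39 lay within 1.5-fold and 9 within 1.2-fold, with the widest bound, 1.38-fold, at Calr. Of the 48 other probe sets of the members 5 had an unadjusted p under 0.05 at 18 months. They were higher in Q92 in Ddit3 and Edem2, and lower in Atf6, Pdia6 and Trib3. At 3 months 2 did, in Atf4 and Edem2, both lower in Q92. Of all genes, by their brightest probe sets, 8.03% reached that level at 18 months and 2.27% at 3 months.

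Several marker lists went with genotype at 18 months, first that of the striatum's own neurons. All 9 measured projection neuron markers had a lower mean in Q92 (median -0.88, lowest -1.26 for Penk with adjusted p = 0.00113), and 1 of the 9 passed. Their mean level, relative to the 12-array mean, ran from 0.11 to 0.27 in wild type and from -0.97 to -0.35 in Q92. Markers of several other cell types were lower too, without passing. All 7 astrocyte markers had a lower mean in Q92, with mean levels of 0.04 to 0.12 in wild type and -0.25 to 0.02 in Q92. All 8 endothelial and pericyte markers did, with levels of 0.01 to 0.16 and -0.18 to under 0, and 5 of 7 oligodendrocyte markers did, with levels of 0.03 to 0.17 and -0.30 to 0.02. The groups did not overlap on the projection neuron, astrocyte, endothelial or oligodendrocyte list. They overlapped on the microglia, thalamic neuron, choroid plexus and interneuron lists. There 6 of 8, 5 of 6, 7 of 8 and 4 of 7 markers had a lower mean in Q92, none passing. The 18S ribosomal RNA control probe set read 5.64 to 5.75 in wild type and 6.21 to 8.31 in Q92. The cortical excitatory neuron markers leaned the other way, with 5 of 7 higher in Q92 (median 0.26, none passing). Their levels ran from -0.15 to 0.12 in wild type. In Q92 they were 0.81 and 0.79 in mice 11 and 25 and -0.74 in mouse 66. The part of these shifts in the values of Mbtps1, Atf6 or the Eif2ak3 branch was not tested.

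At 3 months, when the knock-in mice were young, the members again lay on both sides of 0. In Q92 24 of the 39 had a higher mean, where the share of all genes was 42.6%, and the median difference was 0.03 (range -0.15 to 0.16). None of the 39 passed, against 0.0165% of all genes in the limma test. None had an unadjusted p under 0.05, against 2.27% of all genes. The arrays of 2 members lay wholly above wild type (Pdia6 and Ppp1r15b), where 2.3% of all genes did so, and those of none lay wholly below, against 4.34%.

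The 3 branches had medians of 0.03, 0.02 and 0.01 at 3 months in the order given above, and the third was -0.06 without the 103-day-old wild-type male. The lowest p-value was that of Ern1, which read 6.43, 6.21 and 6.34 in wild type and 6.28, 6.04 and 6.23 in Q92. The groups overlapped, and the difference was -0.14 (SE 0.09, adjusted p = 0.99971). Hspa5 read 10.46, 10.14 and 10.04 in wild type and 10.25, 10.14 and 10.33 in Q92. The 103-day-old wild-type male was the highest of the 6, and the difference was 0.03.

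Xbp1 read 10.01, 9.80 and 9.89 in wild type at 3 months and 9.73, 9.92 and 9.89 in Q92. Atf4 read 8.83, 9.19 and 9.29 in wild type and 9.26, 9.12 and 9.14 in Q92. Ddit3 read 7.55, 7.61 and 7.39 in wild type and 7.36, 7.41 and 7.50 in Q92. All 3 factors overlapped between the groups, with differences of -0.05, 0.07 and -0.09. The projection neuron markers ran from 0.02 to 0.42 in wild type and from 0.13 to 0.40 in Q92 at this age. All 8 choroid plexus markers had a higher mean in Q92 (median 0.94, none passing), with levels of -0.71 to -0.43 in wild type and -0.56 to 2.12 in Q92, the highest in the female named above. All 7 oligodendrocyte and all 8 endothelial and pericyte markers also had a higher mean in Q92 (medians 0.14 and 0.05), and the groups overlapped on both lists. The part of these shifts in the members' values was not tested.

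Whether the genotype difference itself changed with age was tested as an interaction. Of the 39 members 17 had a higher value and 22 a lower one, where 54.3% of all genes had a higher one, and the median was -0.02. An unadjusted p under 0.05 was reached by 1 member, with a lower value, against 5.8% of all genes and 3.28% with a lower value. With a mouse left out that count ran from 0 (without wild-type mouse 9 or 1 of the young Q92 females) to 3 (without the 100-day-old wild-type male or Q92 mouse 25). That 1 was Mbtps1, at -0.32 (SE 0.14, adjusted p = 0.946). No member and no other gene passed the adjusted threshold in the limma test (0% of all genes). The mean genotype difference over both ages, added after the values were seen, gave 19 members with a higher mean and 20 with a lower one and a median under 0.01 in size, where 44.1% of all genes had a higher mean. None passed, against 0.0275% of all genes, and 1 had an unadjusted p under 0.05 (Mbtps1; up to 4 members with a mouse left out, without the 103-day-old wild-type male), against 4.78% of all genes and 3.17% with a lower mean. No member had all 6 Q92 arrays above or below all 6 wild-type arrays, against 0.0605% of all genes in each direction. All 39 of its intervals lay within 1.5-fold and 30 within 1.2-fold.

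With age more members lay on the higher side than on the lower one, and no member passed within a genotype. From 3 to 18 months 28 of the 39 had a higher mean in wild type, where 47.3% of all genes did, and 26 of the 39 in Q92, where 51.9% did. The median differences were 0.09 and 0.06. The co-chaperone gene Dnajb9 was higher at 18 months in both genotypes with no overlap. The 2 age comparisons share no mice. Of the 39 members 20 had a higher mean at 18 months in both, 5 a lower mean in both and 14 differed in sign.

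**Figure D4:**
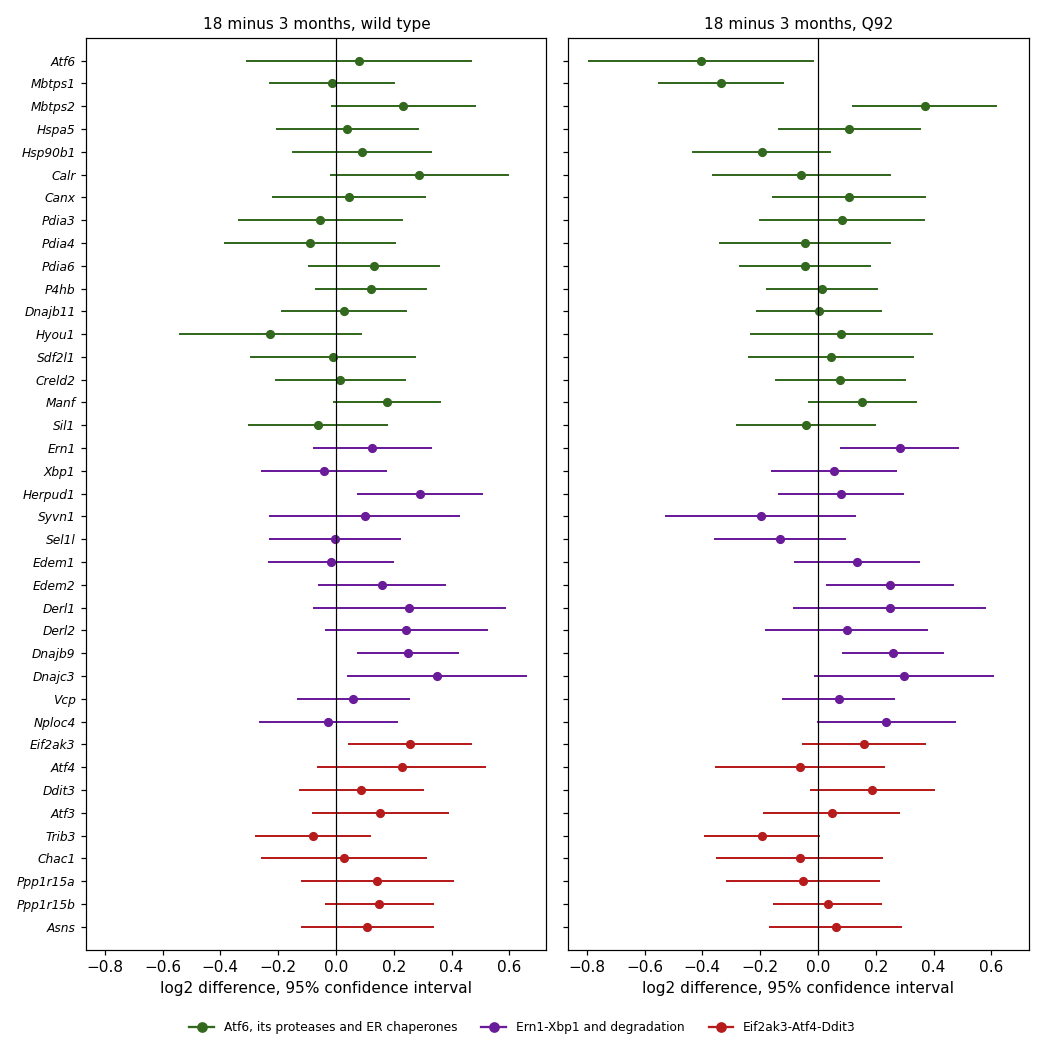
Difference between 18 and 3 months for each of the 39 members in wild type and in Q92, as points with 95% confidence intervals from the limma model, coloured by branch; n = 3 mice per group. Most points of the Ern1 and Xbp1 branch lie right of 0 in both panels, 9 of 13 in wild type and 11 of 13 in Q92.

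In wild type no member passed with age, against 0.0715% of all genes in the limma test. At an unadjusted p under 0.05 there were 4 members, all higher at 18 months (Dnajb9, Herpud1, Dnajc3 and Eif2ak3), where 11% of all genes reached that level and 6.52% did so with a higher mean. Without the 103-day-old wild-type male there were 8, and the median of the degradation branch was 0.23. The arrays of 6 members lay wholly above those of 3 months and those of none wholly below, against 9.76% and 8.81% of all genes. The branch medians were 0.04 for Atf6 and chaperones, 0.13 for Ern1, Xbp1 and degradation, and 0.14 for Eif2ak3, Atf4 and Ddit3, and the first was 0.09 without the 103-day-old wild-type female. The 18-month wild-type mice of this comparison are also those of the 18-month genotype comparison, so the 2 sets of values are not independent.

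In Q92 no member passed with age, against 0.264% of all genes. There were 6 members at an unadjusted p under 0.05, where 12.4% of all genes reached that level, and 10 without Q92 mouse 25. Dnajb9, Mbtps2, Ern1 and Edem2 had the higher mean at 18 months, and Mbtps1 and Atf6 the lower one, with 7.42% and 5.03% of all genes in those directions. Of the 48 other member probe sets 6 reached an unadjusted p under 0.05. They were higher at 18 months in Atf4 and Derl1, and lower in both other Atf6 probe sets, Hsp90b1 and Pdia6. The arrays of 7 members lay wholly above and those of 2 wholly below, against 10% and 7.52% of all genes. The branch medians were 0.01, 0.14 and 0.03. The degradation branch had a median of 0.20 without mouse 25 or without 1 of the young Q92 females. The Atf6 branch had a median of 0.05 without mouse 25 or mouse 66 and of -0.02 without that female, and the Eif2ak3 branch had one of -0.04 without that female.

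Dnajb9 encodes an ER J-protein that binds aggregation-prone segments and is induced by spliced Xbp1. It read 9.04, 9.02 and 9.003 in wild type at 3 months and 9.25, 9.23 and 9.34 at 18 months. It read 8.95, 9.06 and 8.96 in Q92 at 3 months and 9.30, 9.18 and 9.26 at 18 months. All 6 old mice, at 9.18 or more, lay above all 6 young mice, at 9.06 or less.

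The Dnajb9 differences were 0.25 (SE 0.08, adjusted p = 0.325) in wild type and 0.26 (SE 0.08, adjusted p = 0.245) in Q92. Their mean, in a comparison added after the values were seen, was 0.26 (SE 0.06, adjusted p = 0.0726), the lowest p among the members. It passed when 1 probe set per gene was tested (adjusted p = 0.048) and when all probe sets of a gene were averaged (0.0374), and it ranged from 0.0798 to 0.167 when a mouse was left out. Dnajb9 has 1 probe set of its own.

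That same mean over genotypes gave 29 members with a higher mean at 18 months, where 49.3% of all genes had one, and none that passed, against 0.572%. It gave 10 members at an unadjusted p under 0.05, 9 of them higher and 1 lower, against 17.8%, 10.7% and 7.15% of all genes. By complete separation of the 6 old from the 6 young mice there were 2 members with the old mice above, Dnajb9 and Eif2ak3, against 1.36% of all genes, and none with the old mice below, against 0.506%.

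Eif2ak3, the kinase of the translation branch, read 7.13, 6.97 and 6.92 in wild type at 3 months and 7.19, 7.40 and 7.20 at 18 months. It read 7.15, 6.995 and 7.13 in young and 7.30, 7.15 and 7.31 in old Q92 mice. The old mice lay above the young ones of the same genotype in both, and in Q92 the highest young and the lowest old mouse were nearly level. The differences were 0.26 (SE 0.10, adjusted p = 0.405) and 0.16 (SE 0.10, adjusted p = 0.619). The other 2 Eif2ak3 probe sets, which were dim, differed by -0.04 and -0.14 in wild type.

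Herpud1, an ERSE-II gene and a scaffold of the degradation complex, read 8.40, 8.28 and 8.43 in wild type at 3 months and 8.63, 8.61 and 8.74 at 18 months. It read 8.57, 8.40 and 8.52 in young and 8.41, 8.60 and 8.71 in old Q92 mice. The old wild-type mice were all above the young ones, and in Q92 the ages overlapped. The differences were 0.29 (SE 0.10, adjusted p = 0.351) in wild type and 0.08 (SE 0.10, adjusted p = 0.839) in Q92, and the change between genotypes was -0.21 (SE 0.14, adjusted p = 0.95). A second Herpud1 probe set differed by 0.11 and 0.15.

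Ern1, Edem2 and Mbtps2 had their larger difference in Q92, but the change between genotypes had an unadjusted p above 0.05 for the brightest probe set of each of the 3. Ern1 read 6.28, 6.04 and 6.23 in young Q92 mice and 6.46, 6.49 and 6.45 in old ones. The old mice were all above the young ones, with a difference of 0.28 (SE 0.09, adjusted p = 0.28) in Q92 and 0.13 in wild type. The other 4 Ern1 probe sets were dimmer and of mixed sign, from -0.26 to 0.17 in Q92. Edem2, which trims mannose from glycoproteins bound for degradation, read 6.42, 6.62 and 6.68 in young Q92 mice and 6.79, 6.77 and 6.90 in old ones. These did not overlap, and the difference was 0.25 (SE 0.10, adjusted p = 0.407), with 0.16 in wild type. A second, dimmer Edem2 probe set differed by 0.10 in Q92 and by -0.39 in wild type (adjusted p = 0.184), and the mean of both gave -0.12 in wild type, so the wild-type direction depends on the probe set. Mbtps2 read 7.32, 7.48 and 7.56 in young Q92 mice against 7.85, 7.75 and 7.88 in old ones, with 0.37 (SE 0.11, adjusted p = 0.25). In wild type it read 7.62, 7.37 and 7.23 and then 7.73, 7.50 and 7.69, which overlapped, with a difference of 0.23.

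Mbtps1 had the opposite sign in Q92, with no overlap between the ages. It read 8.69, 8.89 and 8.67 in young Q92 mice and 8.45, 8.44 and 8.35 in old ones, a difference of -0.34 (SE 0.10, adjusted p = 0.223), against -0.01 in wild type. These are the same 3 old Q92 mice as in the genotype comparison. Over all probe sets of the 27 members that have several, the sign was the same throughout for 12 members in wild type and 18 in Q92.

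Hspa5 with age gave 0.04 in wild type and 0.11 in Q92, Xbp1 gave -0.04 and 0.06, Atf4 gave 0.23 and -0.06, and Ddit3 gave 0.09 and 0.19. By these brightest probe sets the ages overlapped for each of these 4 genes in both genotypes. The other Xbp1 probe sets gave 0.21, 0.26 and 0.05 in wild type and 0.11, 0.09 and -0.05 in Q92, none passing. The wild-type direction of Xbp1 thus depends on the probe set. The probe sets of Hspa5, Atf4 and Ddit3 also differed in sign in wild type. For age, 37 of the 39 intervals lay within 1.5-fold in wild type and 36 in Q92, with the widest bounds at Dnajc3 (1.58-fold) and Atf6 (1.73-fold).

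**Figure D5:**
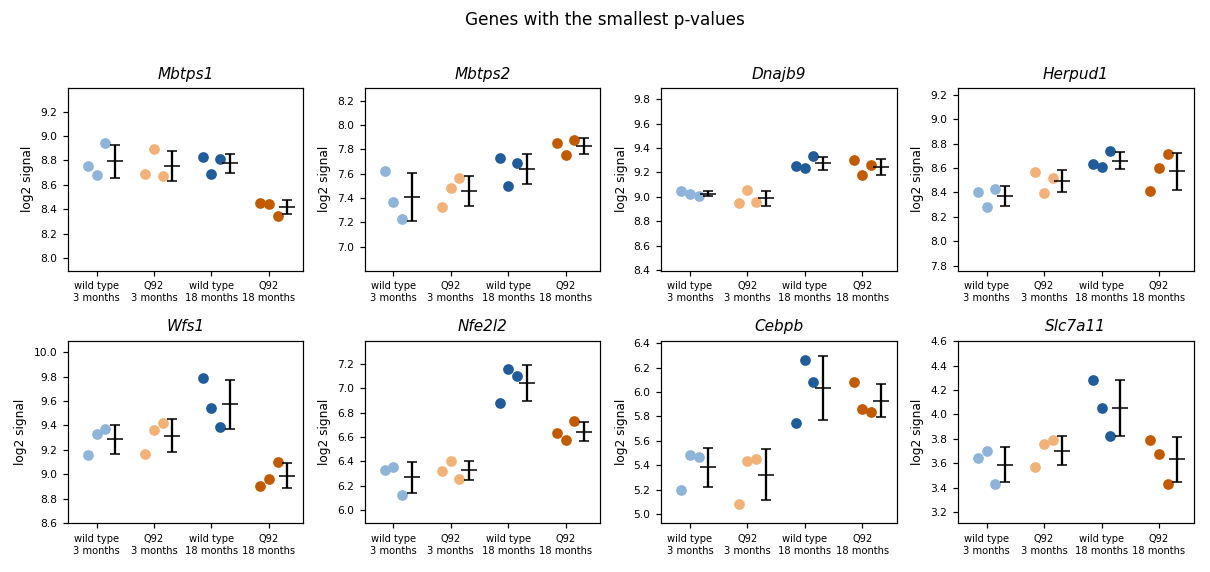
Log2 signal in each mouse (points), with group mean and SD (bars, n = 3), of 4 members with low p-values, Mbtps1, Mbtps2, Dnajb9 and Herpud1, and of the related genes Wfs1, Nfe2l2, Cebpb and Slc7a11; every panel spans 1.5 log2 units. Mbtps1 and Wfs1 are lowest in the 18-month Q92 mice, while Dnajb9 and Cebpb are higher in both 18-month groups than in both 3-month groups.

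The wider pathway was read from 101 measured genes of 104 listed, in 4 groups: ER folding and translocation (31 genes), ER-associated degradation (19), the integrated stress response and amino acid genes (30) and further regulators (21). None passed between genotypes at 18 or at 3 months. At 18 months 4 of the 101 had an unadjusted p under 0.05, all with the lower mean in Q92 (Wfs1, Nfe2l2, Slc7a11 and Bbc3). That is 3.96% of the list, against 8.03% of all genes and 4.95% with a lower mean. At 3 months there were 0, against 2.27% of all genes in the limma test. The median differences were below 0.01 in size at both ages. At 3 months the 3 lowest p-values were those of Eif2ak4, Pck2 and Selenos.

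Eif2ak4, a kinase that senses amino acid shortage, read 5.73, 6.01 and 5.98 in wild type at 3 months and 6.14, 6.11 and 6.34 in Q92, a difference of 0.29. Pck2, mitochondrial phosphoenolpyruvate carboxykinase, read 6.58, 6.11 and 6.21 in wild type and 5.88, 6.02 and 6.17 in Q92, a difference of -0.27. Selenos, a selenoprotein of the degradation complex, read 8.32, 8.63 and 8.57 in wild type and 8.66, 8.69 and 8.66 in Q92, a difference of 0.16. The Q92 mice lay above the wild-type mice for Eif2ak4 and Selenos and overlapped them for Pck2, and each adjusted p was 0.99971.

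Wfs1, whose product is an ER membrane protein that restrains Atf6 signalling, read 9.79, 9.54 and 9.39 in wild type at 18 months and 8.91, 8.96 and 9.10 in Q92. No Q92 mouse reached the lowest wild-type mouse. The difference was -0.58 (SE 0.12, adjusted p = 0.132), which is the lowest p of the pathway in this comparison and did not pass. At 3 months the values were 9.15, 9.33 and 9.37 in wild type and 9.17, 9.36 and 9.42 in Q92, with a difference of 0.03. The projection neuron markers had the same direction at 18 months, as given above, and their part in the Wfs1 value was not tested.

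Slc7a11, the cystine transporter induced by Atf4, read 4.28, 4.05 and 3.82 in wild type and 3.79, 3.68 and 3.43 in Q92 at 18 months. The groups did not overlap, and the difference of -0.42 (SE 0.14, adjusted p = 0.41) did not pass. Slc7a11 was dim, and its difference ran from -0.50 to -0.15 over the settings that left out no mouse.

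With age in wild type 1 of the 101 rose. This was Nfe2l2, which encodes the oxidative stress factor that Eif2ak3 can phosphorylate, and 11 of the 101 had an unadjusted p under 0.05, all with the higher mean at 18 months. That is 10.9% of the list, against 11% of all genes and 6.52% with a higher mean. Nfe2l2 read 6.33, 6.35 and 6.12 in wild type at 3 months and 6.88, 7.16 and 7.10 at 18 months, a difference of 0.78 (SE 0.10, adjusted p = 0.0279). It read 6.33, 6.40 and 6.25 in young and 6.63, 6.57 and 6.73 in old Q92 mice, a difference of 0.32 (SE 0.10, adjusted p = 0.273). The old mice lay above the young ones in both genotypes, and the old Q92 mice lay below the old wild-type mice, by -0.40 with an adjusted p of 0.251.

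The wild-type Nfe2l2 call was lost when any 1 of 9 of the 12 mice was left out (each but mouse 9 of wild type and mice 25 and 66 of Q92), at adjusted p-values of up to 0.101. It was also lost in 6 of the 12 settings that left out no mouse, among them the mean of all its probe sets (0.38, adjusted p = 0.14). Quantile normalisation also ended it, as did sex, the ribosomal RNA control signal or the choroid plexus markers as a covariate. The change between genotypes was -0.46 (SE 0.14, adjusted p = 0.935). In Q92 none of the 101 passed with age.

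Averaged over both genotypes, 2 of the 101 rose, Nfe2l2 by 0.55 (SE 0.07, adjusted p = 0.0124) and Cebpb by 0.63 (SE 0.10, adjusted p = 0.0274). Of all genes 0.572% passed in this comparison. Cebpb encodes a transcription factor that partners Atf4 and also acts in inflammation. It read 5.19, 5.49 and 5.46 in young and 5.74, 6.26 and 6.08 in old wild-type mice. It read 5.08, 5.43 and 5.45 in young and 6.09, 5.86 and 5.84 in old Q92 mice. All old mice lay above all young ones. The Nfe2l2 call ended with the mean of all probe sets (0.23, adjusted p = 0.0794). With that mean Cebpb had a difference of 0.38 and still passed (adjusted p = 0.0435). The Cebpb call was lost without the 103-day-old wild-type male, either 103-day-old Q92 female, or mouse 12, 17 or 11, at adjusted p-values of 0.0522 to 0.069.

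In wild type 7 of 8 microglia markers also had a higher mean at 18 months (median 0.63, none passing). Their levels were -0.35 to -0.16 at 3 months and 0.13 to 0.58 at 18 months. In Q92 4 of 8 did, with levels of -0.20 to -0.03 at 3 months and -0.14 to 0.52 at 18 months. In wild type all 8 choroid plexus, all 7 oligodendrocyte and all 6 thalamic neuron markers also had a higher mean at 18 months, none passing. In Q92 all 9 projection neuron markers (median -0.98, 2 passing), all 7 astrocyte markers (1 passing) and all 7 oligodendrocyte markers had a lower mean. Within each genotype the markers of every other list lay on both sides of 0. The part of these shifts in the values of Nfe2l2, Cebpb or the members was not tested.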

How the data were processed

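The values used were log2 signals per probe set as deposited, which the authors made with RMA and the affy package, per the submitters' processing notes, with versions not given in the sources used here. Whether the 12 arrays were normalised together is not given either. RMA equalises total signal between arrays. Members and lists were chosen with earlier results of these data known.

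Probe sets were named from the platform's gene table (34945 with 1 gene, 932 with several, 9160 with none), 64 controls were left out, and no further filter was set. The model was fitted with limma 3.58.1 in R 4.3.3, with a mean per group, 8 residual and 4.50 prior degrees of freedom, and a threshold of 0.05. It was tested on simulated data. Array number limits the precision, and depth does not apply. Labels give each mouse its own number, so numbers pair no samples.

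Values per mouse are given for Atf6, Ern1, Eif2ak3, Xbp1, Atf4, Ddit3 and Hspa5, for any gene passing, and for up to 3 members per branch and comparison with an unadjusted p under 0.05 and no overlap. They are also given for the 3 other pathway genes with the lowest p between genotypes, and for Htt and Rrs1. The members named with differences alone, such as Pdia3 and Syvn1, are examples of their branch chosen after their values were seen. The comparisons averaged over ages or genotypes were added after seeing the data. Alternatives changed normalisation, filter, prior, weights, covariates (sex, 18S signal, age in days, cortical or choroid plexus markers), probe set choice, the samples fitted and each array in turn. With age in days as a block, the 18-month genotype difference rests on Q92 mouse 11 against wild-type mice 12 and 17.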

Additional observations from a re-analysis of the deposited data

Results flagged for a closer look

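For 2 of the genes in the wider pathway the age differences had opposite directions in the 2 genotypes, with every old mouse on one side of every young mouse in wild type and on the other side in Q92. For Wfs1 the age difference was 0.29 in wild type and -0.33 in Q92, a change of -0.61 (SE 0.17), and the limma interaction test did not pass (adjusted p = 0.9). For Prkcsh, the beta subunit of the glucosidase that trims glycans in the ER, the age difference was 0.14 in wild type and -0.08 in Q92, a change of -0.22, and the interaction did not pass either (adjusted p = 0.95).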

How the results depend on the processing

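The 3 mice per group limit the precision, and RMA values give no absolute amount. Under up to 13 settings that left out no array, and with each of the 12 mice left out in turn, the count of members passing was 0 in each of the 5 planned comparisons. In the added age comparison over both genotypes 1 member passed with the 18S signal as a covariate (Dnajc3), 1 with the mean of all probe sets (Dnajb9) and 1 with 1 probe set per gene (Dnajb9). The median member difference at 18 months moved from -0.0105 to -0.0413 with the 18S covariate. The median for the change with age moved from -0.024 to -0.0593 with array weights and ran from -0.0655 to 0.0051 with a mouse left out. The wild-type age median moved from 0.0907 to 0.0534 with quantile normalisation and to 0.0295 with the mean of all probe sets. The causes of these shifts were not tested. Mbtps1 at 18 months ran from -0.41 to -0.29 over all settings and never passed. No called value changed its direction. No paired analysis was possible because each mouse has a number of its own.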
